A study of Mus musculus with 3 samples.

Results

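The genes described here are the STAT transcription factors and the SOCS proteins that restrain them, measured in whole kidney in anti-GBM glomerulonephritis, a mouse disease in which antibody against the glomerular basement membrane damages the filter of the kidney. The set is defined by gene name and holds 9 genes: Stat2, Stat3, Stat4, Stat5a, Stat5b, Stat6, Socs1, Socs2 and Socs3. Of these, 8 had at least 1 row of their own in the value table (11 of its 16281 rows), and 7 had a ratio on all arrays and could be tested, among 8449 features tested in all. The 3 nephritic BALB/c mice were taken 11 days after they received the antibody, and RNA of each was hybridised on its own 2-colour array beside 1 common pool of kidney RNA from 5 normal BALB/c mice. The labels give no genetic change in either group, no mouse serum or mock injection for the control animals and no sex or age.

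Each value below is a log ratio of nephritic mouse over control pool in the deposited log unit, after the array's median was set to 0. The base of the logarithm is not given in the sources used here: a doubling would be a value of 1 in base 2, 0.693 in natural base and 0.301 in base 10. A positive value is read as more RNA in the nephritic kidney; the dye labels (nephritic RNA in Cy5) make this direction likely, but no source states it for the deposited numbers. An exact 0 was treated as a missing ratio, and such cells made up 26.7 to 32.4% of the arrays. A gene is said to have risen or fallen where limma, testing whether the mean of the 3 ratios differs from 0, gave an adjusted p below 0.05. Differences among control mice and between the dyes do not enter this test, since the pool was the only control sample and the dyes were not swapped.

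Cytokine receptors without kinase activity of their own carry JAK kinases, which phosphorylate STAT proteins when a cytokine binds. Phosphorylated STATs pair up, enter the nucleus and switch on target genes, among them genes of the SOCS family, whose proteins bind the receptors or the kinases and end the signal. RNA levels of STAT genes do not measure this phosphorylation. STAT3 is the main factor of IL-6 and related cytokines and is known in injured kidney tubules, STAT2 belongs to the interferon response, STAT4 to IL-12, STAT5A and STAT5B to growth hormone, prolactin and IL-2, and STAT6 to IL-4 and IL-13.

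Promoter windows of Socs3, Socs1, Stat2 and Cish are shown first. They were picked because each held a match to at least 1 of the short motifs through which STAT complexes act. RefSeq windows on build GRCm38.p6, from 250 bases before to 50 after an annotated start, were found for 8 of the 9 genes (11 windows; Socs2 is the gene without one). They were searched for TTCNNNGAA, the core of the site that STAT dimers bind, for TTCNNNNGAA, the wider spacing that STAT6 prefers, and for GAAANNGAAA, a core of the interferon-stimulated response element, which was searched on both strands. The first and second of these read the same on either strand. Capitals mark a match in each line that follows.
Socs3, 30 bases around the match, chr11:117969502-117969531, minus strand: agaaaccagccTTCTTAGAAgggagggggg
Socs1, 250 bases before the start, chr16:10785537-10785786, minus strand: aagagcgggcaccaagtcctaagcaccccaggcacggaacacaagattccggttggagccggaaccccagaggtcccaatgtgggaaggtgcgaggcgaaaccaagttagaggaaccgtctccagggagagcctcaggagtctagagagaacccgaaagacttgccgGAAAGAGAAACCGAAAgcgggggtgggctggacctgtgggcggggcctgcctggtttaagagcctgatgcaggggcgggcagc
Stat2, 250 bases before the start, chr10:128270248-128270497, plus strand: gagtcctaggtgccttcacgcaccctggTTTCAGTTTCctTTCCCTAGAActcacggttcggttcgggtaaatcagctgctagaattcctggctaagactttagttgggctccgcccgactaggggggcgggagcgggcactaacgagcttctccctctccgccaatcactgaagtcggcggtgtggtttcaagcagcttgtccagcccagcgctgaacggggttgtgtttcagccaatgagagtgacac
Cish, a SOCS family gene outside the set, first 30 bases from the start, chr9:107296659-107296688, plus strand: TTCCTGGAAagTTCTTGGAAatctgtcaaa

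The Socs3 match to TTCNNNGAA lies at positions -154 to -146 from the annotated start, and Cish holds 2 such matches, at 1 to 9 and 12 to 20. In Socs1, 2 overlapping matches to GAAANNGAAA lie at -83 to -74 and -77 to -68. In Stat2 a match to GAAANNGAAA on the opposite strand (-222 to -213) lies next to a TTCNNNNGAA at -210 to -201. The second of 2 Stat4 windows also held GAAANNGAAA, at -97 to -88, so 4 of the 11 windows of the set held a match. Outside the set, the first of 2 Irf9 windows held TTCNNNNGAA at 2 to 11. Among all 32851 promoter windows of the RefSeq table, 8.3% hold TTCNNNGAA, 6.95% hold TTCNNNNGAA and 3.44% hold GAAANNGAAA. The share that hold any of these motifs was not computed. A match is a stretch of letters and not a measured binding site.

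Of the 7 tested genes, 3 rose (Stat3, Socs2 and Stat2), 2 fell (Stat5a and Stat5b) and 2 did not pass (Socs1 and Socs3). Over all 8449 tested features 43.1% passed, 20.8% as higher and 22.3% as lower, so a call by itself is common on these arrays. The median of the 7 genes was -0.163, against -0.00806 over all features; this middle value is the average of 2 opposing Socs1 rows, and with the first row alone it would be 0.11. The STAT genes passed in both directions, and Socs2 was the 1 SOCS gene of the set to pass.

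**Figure D1:**
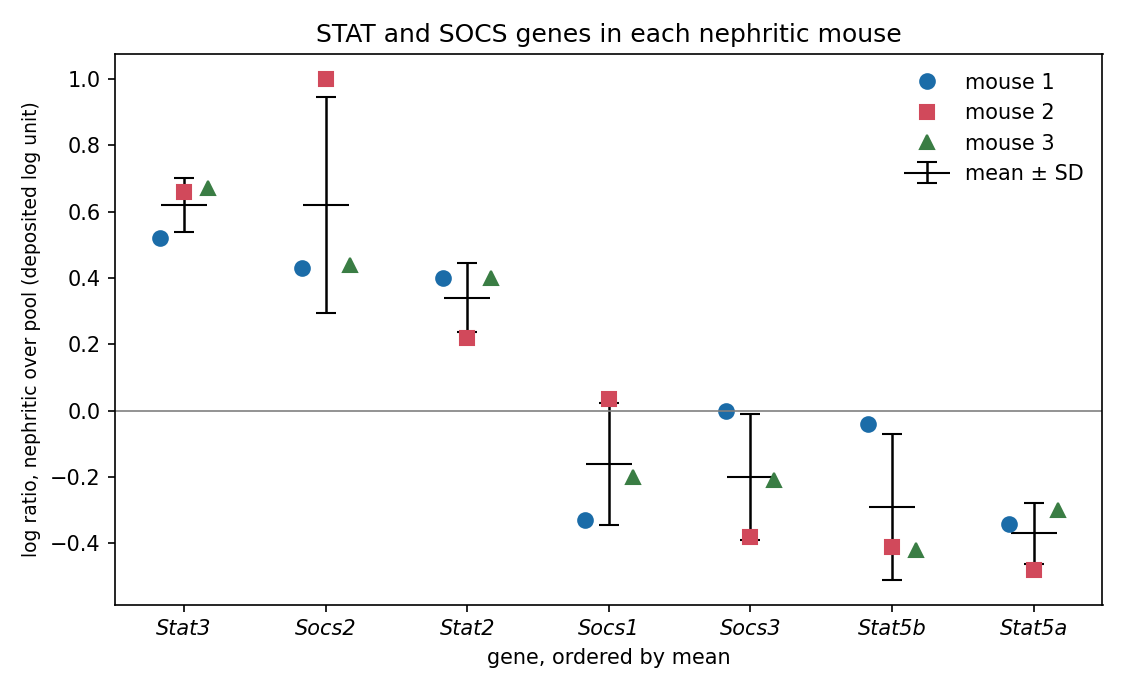
Log ratios of the 7 tested STAT and SOCS genes in each of the 3 nephritic mice (symbols), with the mean and SD (black), on the y axis in the deposited log unit; genes on the x axis are ordered by mean. All 3 mice lie above 0 for Stat3, Socs2 and Stat2 and below 0 for Stat5a, Stat5b and Socs3, while Socs1 has mice on both sides.

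Stat3, the factor of the IL-6 family, stood at 0.52, 0.66 and 0.67 in mice 1, 2 and 3. All animals were well above 0 and lay close together, and 93.5% of tested features had a lower mean. Its mean was 0.62 ± 0.0808 (SD, n = 3; 95% interval 0.45 to 0.78; limma adjusted p = 0.000686), a rise of 1.53-fold if the base is 2, of 1.85-fold if it is natural and of 4.13-fold if it is 10. The gene had 2 rows, from different cDNA accessions, with means of 0.61 and 0.62. That distance of 0.00484 was small for this table: of 1047 genes with exactly 2 rows on all arrays, 98.6% had rows farther apart, and the median distance was 0.17. Stat3 was the only tested gene of the set to pass when exact 0 cells were counted as ratios rather than as missing (0.63, limma adjusted p = 0.0404). Over the alternatives the adjusted p ran from 1.34e-07 to 0.073. The low end came from dropping the 20% of features with the lowest SD, which changes the prior. The next lowest was 1.31e-05, with array weights.

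Stat2 encodes a part of the complex that forms with IRF9 after type I interferon. It was measured at 0.40, 0.22 and 0.40 in mice 1, 2 and 3, positive in all mice and lowest in mouse 2. The mean was 0.34 ± 0.104 (SD, n = 3; 95% interval 0.17 to 0.51; limma adjusted p = 0.00952). It no longer passed when mouse 3 was left out (0.31, adjusted p = 0.0837) or with 0 cells counted as ratios (0.36, adjusted p = 0.0842), and over the alternatives the adjusted p ran from 0.00045 to 0.111. Its partner Irf9 rose by 0.47 ± 0.0618 (adjusted p = 0.00185), with 0.47, 0.54 and 0.41 in the 3 mice.

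Stat5a and Stat5b encode closely related proteins that relay growth hormone, prolactin and IL-2 family signals. Stat5a read -0.34, -0.48 and -0.30, below 0 in all mice. The mean was -0.37 ± 0.0923 (SD, n = 3; 95% interval -0.54 to -0.20; limma adjusted p = 0.00601), a level 1.3-fold lower if the base is 2. Its call was lost with 0 cells counted as ratios (-0.36, adjusted p = 0.0742, within 0.000831 to 0.0956 over the alternatives).

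Stat5b was at -0.0396 in mouse 1 against -0.41 and -0.42 in mice 2 and 3. Mouse 1 was thus close to the pool, and the other mice overlapped the range of Stat5a. The mean of -0.29 ± 0.219 (SD, n = 3; 95% interval -0.52 to -0.0684) passed narrowly (limma adjusted p = 0.0432). It was lost without mouse 2 (-0.23, adjusted p = 0.169), without mouse 3 (-0.23, adjusted p = 0.237), without centring (-0.28, adjusted p = 0.0523) and with 0 cells counted as ratios (-0.28, adjusted p = 0.298), and without mouse 1 the mean was -0.42 (adjusted p = 0.0012). The adjusted p of Stat5b ran from 0.000744 to 0.298 over the alternatives.

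Stat3, Stat5a and Stat5b are neighbours on mouse chromosome 11, with 0 protein-coding genes between Stat3 and Stat5a and 0 between Stat5a and Stat5b in RefSeq. Their log ratios did not run the same way: the lowest mouse of Stat3 (0.52) lay above the highest of Stat5a (-0.30) and of Stat5b (-0.0396). Stat4, which relays IL-12, had a ratio only in mouse 1, at 0.25, and an exact 0 in the others, so no mean is given. For Stat6 the single candidate row is annotated to both Stat6 and Nab2, so its values were not assigned to either gene.

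Among the inhibitors, Socs2, best known for restraining growth hormone signalling through STAT5, read 0.43, 1.00 and 0.44 in mice 1, 2 and 3. All animals were above 0, with mouse 2 far above the others. The mean of 0.62 ± 0.326 (SD, n = 3; 95% interval 0.34 to 0.91; limma adjusted p = 0.00644) was as high as that of Stat3 but less even between mice, and the ranges of the 2 genes overlapped. Without mouse 2 the mean was 0.44 (adjusted p = 0.00953). A second Socs2 row was exactly 0 on every array. With 0 cells counted as ratios the gene moved to 0.32 and its call was lost (limma adjusted p = 0.167). The adjusted p ran from 9.1e-08 to 0.177 over the alternatives. The low end came again from dropping the 20% of features with the lowest SD, and the next lowest was 0.000713, without mouse 1.

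Socs3 is the classical feedback inhibitor of gp130, the shared receptor chain of the IL-6 family, and a standard target of STAT3. It read -0.00167, -0.38 and -0.21 in mice 1, 2 and 3, so that mouse 1 was level with the pool and the others lay below it. The mean was -0.20 ± 0.19 (SD, n = 3) and did not pass (limma adjusted p = 0.113), with a 95% interval of -0.41 to 0.0116. Leaving out mouse 1 gave -0.30 with a pass (adjusted p = 0.012), as did array weights (-0.22, adjusted p = 0.0109); without mouse 2 it was -0.11 (adjusted p = 0.468, the highest over the alternatives). The highest mouse of Socs3 lay below the lowest mouse of Stat3 by more than the SD of either gene.

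Socs1, an inhibitor of JAK kinases that limits interferon gamma signalling, gave opposite readings from its rows. The first row was at -0.33, 0.38 and 0.29 in mice 1, 2 and 3, and the second at -0.32, -0.31 and -0.68. Mouse 1 was nearly the same in both rows, while mice 2 and 3 were above the pool in one and below it in the other, although the platform lists the same accession for both.

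With rows tested singly, where 42.4% of 9693 rows passed and 21.5% passed as lower, the second Socs1 row passed as lower at -0.44 ± 0.213 (SD, n = 3; adjusted p = 0.0076) and the first did not, at 0.11 ± 0.389 (adjusted p = 0.531). Their means lay 0.552 apart, and 11.4% of the 1047 genes with exactly 2 rows had rows farther apart. The averaged gene, at -0.16 ± 0.184 (95% interval -0.37 to 0.0423), did not pass (limma adjusted p = 0.171), and with array weights it did (-0.17, adjusted p = 0.0331, within 0.0331 to 0.531 over the alternatives). No direction is given for Socs1.

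**Figure D2:**
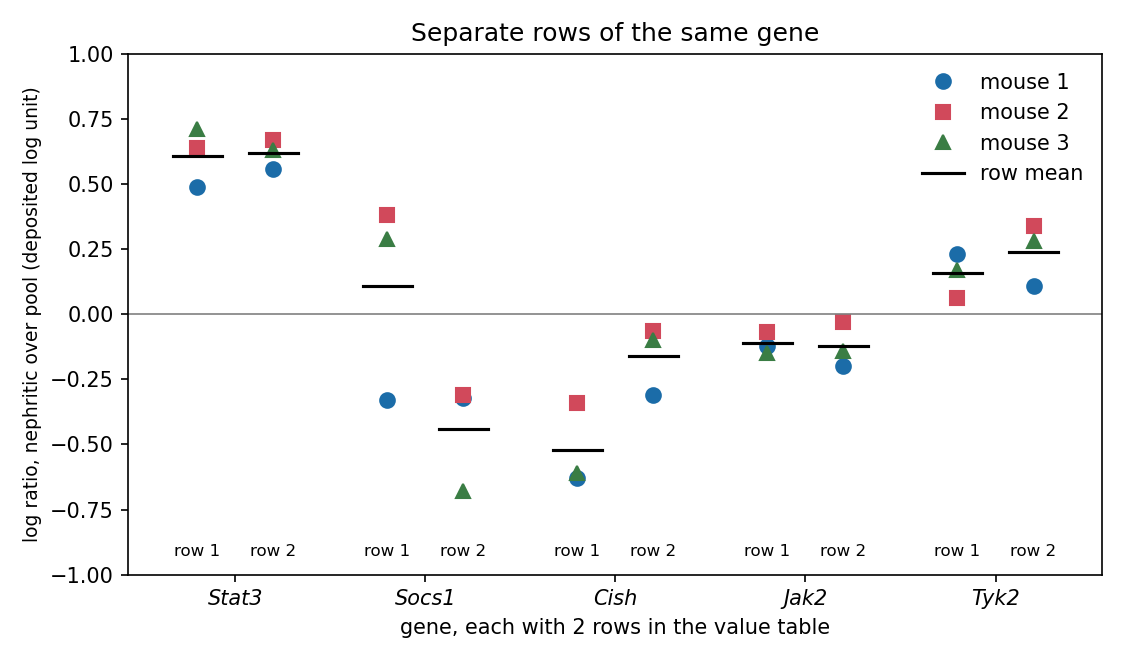
Log ratios in each mouse (symbols) and row means (bars), in the deposited log unit, for the genes of the STAT, SOCS and JAK families with exactly 2 rows on all arrays. The row means of Stat3 and of Jak2 nearly coincide, those of Socs1 lie 0.552 apart and on opposite sides of 0, and those of Cish 0.366 apart.

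Of the other SOCS family genes, Cish passed and Socs5 and Socs6 did not, although Socs6 passed as lower with array weights (-0.15, adjusted p = 0.0283). Cish, a STAT5 target and the founding member of the family, was lower at -0.47, -0.20 and -0.35, a mean of -0.34 ± 0.133 (SD, n = 3; limma adjusted p = 0.0121). Its call was lost without mouse 3 (-0.34, adjusted p = 0.0713) and with 0 cells counted as ratios. With rows tested singly, the first Cish row passed (-0.52, adjusted p = 0.0021) and the second did not (-0.16, adjusted p = 0.153). Socs5 and Socs6 stood at 0.0331 ± 0.0911 and -0.13 ± 0.0509, and no row of the value table was annotated to Socs4 or Socs7.

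In the order of means, Socs2 and Stat3 were nearly level and overlapped, and the highest mice of Stat2, at 0.40, were below every mouse of Stat3. The lowest mouse of Stat2, at 0.22, was above every mouse of the averaged Socs1 but below mice 2 and 3 of its first row. Neighbours further down, from Socs1 through Socs3 and Stat5b to Stat5a, overlapped. Genes elsewhere in the table with nearly the same values, by Euclidean distance over the 3 mice, were Clk2, Sphk1 and Ctps for Socs2 (distances of 0.131, 0.147 and 0.156) and Dmac2, Dlg3 and Slc39a11 for Stat5a (0.0256, 0.028 and 0.0353). Likeness over 3 mice is a description only.

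Of the 4 JAK kinases upstream, Jak3 and Tyk2 passed as higher, both close to the threshold. That is 50% of the list, against 43.1% of all features that passed and 20.8% that rose. Jak3, the kinase of the IL-2 family receptors in lymphocytes, read 0.0261 in mouse 1 against 0.49 and 0.51, a mean of 0.34 ± 0.273 (SD, n = 3; limma adjusted p = 0.0395) whose call was lost without mouse 2 (0.27, adjusted p = 0.148), without mouse 3 (0.26, adjusted p = 0.201) and with 0 cells counted as ratios. Tyk2, which serves interferon and IL-12 receptors, was at 0.20 ± 0.0275 (adjusted p = 0.0463), also lost without mouse 2 (0.20, adjusted p = 0.151) or mouse 3 (0.19, adjusted p = 0.282) and with ratios on at least 2 arrays (0.20, adjusted p = 0.0567). With rows tested singly, 1 of its 2 rows passed (0.24, adjusted p = 0.0398) and the other did not (0.16, adjusted p = 0.13). Jak1 and Jak2, used by most of the receptors, did not pass, at 0.10 ± 0.0845 and -0.12 ± 0.0602, although Jak2 passed as lower with array weights (-0.13, adjusted p = 0.0461).

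Outside the set, 109 of 175 listed ligands, receptors, kinases, inhibitors and targets of the pathway were tested, of which 61 rose and 14 fell (68.8% passed, against 43.1% of all features), with a median of 0.29. With 0 cells counted as ratios, 24 of 148 passed, all as higher. Over all features 986 of 13241 passed in that setting, 549 of them as higher. The lists were written with earlier results of these arrays known, and the counts are descriptions.

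Cytokines and receptors that signal through gp130 or related chains to STAT3 moved in both directions: of 12 tested, 6 rose and 3 fell. That is 75% passing, against 43.1% of all features, with a median of 0.25. The gp130 chain itself, Il6st, rose by 0.35 ± 0.161 (SD, n = 3, limma adjusted p = 0.0135). For Il6st the alternatives were not examined. Il6 stood at 1.85, 1.82 and 1.94, a mean of 1.87 ± 0.064 (SD, n = 3), and Osmr, the receptor of oncostatin M, at 2.09, 1.74 and 1.78, also 1.87 ± 0.196. Il11 was at 1.19 ± 0.126. With 0 cells counted as ratios Il11 moved to 0.60 and Osmr to 1.26, both still passing.

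The binding chain of the IL-6 receptor, Il6ra, was at 0.33 ± 0.0723, an average of 3 rows at -0.0246, 0.46 and 0.56, and its call was lost without mouse 3 (0.30, adjusted p = 0.0864) and with 0 cells counted as ratios. The neutrophil growth factor Csf3 fell by 1.26 ± 0.282 and the receptor of leukemia inhibitory factor, Lifr, by 0.32 ± 0.113. Both falls were lost with 0 cells counted as ratios, Csf3 at -0.64 and Lifr at -0.10. Lifr was also lost with ratios on at least 2 arrays (-0.15, adjusted p = 0.142), without mouse 2 (-0.26, adjusted p = 0.0729) and without mouse 3 (-0.33, adjusted p = 0.0721).

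Textbook targets of STAT3 were mostly higher. Of 20 tested, 14 rose and 1 fell (75% passed, against 43.1% of all features). The list median of 0.77 was between 0.69 and 0.79 in the 3 mice. Junb, an AP-1 factor, was at 1.91 ± 0.158 (SD, n = 3), Bcl3, a nuclear partner of NF-kB, at 1.55 ± 0.0971, Myc at 1.54 ± 0.241, the protease inhibitor Timp1 at 1.53 ± 0.223 and the endotoxin-binding protein Lbp at 1.39 ± 0.00625. The fall was Ccnd1, cyclin D1, by 0.39 ± 0.152, lost without mouse 3 (-0.31, adjusted p = 0.0788) and with 0 cells counted as ratios (-0.18, adjusted p = 0.103). Many of these genes also respond to NF-kB or growth factor signals, and Socs3, described above at -0.20, is a STAT3 target in the textbooks that was not put on this list.

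Textbook interferon-stimulated genes rose in 18 of 22 (81.8%, against 20.8% of all features), Stat2 and Irf9 among them. Their median was 0.46, with mouse 2 lowest at 0.35 against 0.47 and 0.61. The RNA sensor Oas1a was at 1.09 ± 0.226, the immunoproteasome subunit Psmb8 at 1.02 ± 0.189, the interferon regulatory factors Irf7, Irf8 and Irf1 at 0.84 ± 0.223, 0.76 ± 0.241 and 0.70 ± 0.156, and the GTPase Gbp2 at 0.72 ± 0.144 (SD, n = 3). These 6 calls were lost with 0 cells counted as ratios. Interferon gamma itself, Ifng, was lower at -0.93 ± 0.312, and moved to -0.46 without a call in that setting, while its receptor chains rose, Ifngr1 by 0.86 ± 0.0444 and Ifngr2 by 0.63 ± 0.151, the latter also lost there (0.64). The list of interferon, IL-10 and IL-12 family ligands and receptors rose in 4 and fell in 4 of 10 (80% passed, against 43.1% of all features). The falls were Ebi3 at -1.42 ± 0.677, Il23a at -0.85 ± 0.193, Ifng and Il12a at -0.45 ± 0.165. The calls of Ebi3 and Il23a were lost with 0 cells counted as ratios. For Il12a the alternatives were not examined.

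Targets of STAT5 did not move one way: of 8 tested, 2 rose (Cdkn1a and Socs2) and 3 fell (Id1, Ccnd1 and Cish). That is 62.5% passing, against 43.1% of all features, with a median of -0.00983. The cell cycle inhibitor Cdkn1a was at 1.57 ± 0.095 and moved to 0.52 with 0 cells counted as ratios, and the differentiation inhibitor Id1 was at -0.53 ± 0.112 (SD, n = 3), lost in that setting (-0.51, adjusted p = 0.0628). Socs2 at 0.62 and Cish at -0.34 thus had opposite signs in all 3 mice, although both are standard STAT5 targets. Igf1, a growth hormone target, did not pass, at 0.00634 ± 0.353 with mouse 1 above and mice 2 and 3 below the pool.

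Targets of STAT6, the factor of IL-4 and IL-13, rose in 9 of 12 (75%, against 20.8% of all features) with a median of 0.47. For Stat6 itself no value is given, because its row is also annotated to Nab2. The mannose receptor Mrc1 was at 1.51 ± 0.13 (SD, n = 3), the lectin Clec10a at 1.35 ± 0.294, the chemokines Ccl17 and Ccl24 at 0.88 ± 0.291 and 0.53 ± 0.119, and the shared receptor chain Il4ra at 0.53 ± 0.101. With 0 cells counted as ratios Clec10a, Ccl17 and Il4ra lost their calls, Ccl17 moved to 0.45 and Ccl24 to 0.24. Among targets of STAT4, Il18r1 rose by 1.38 ± 0.128, while Ifng was lower and the T cell factor Tbx21 fell by 0.23 ± 0.101, a narrow call (adjusted p = 0.0422) that was lost without mouse 2 (-0.17) or mouse 3 (-0.23), without centring (-0.21), with ratios on at least 2 arrays, without the 20% of features with the lowest SD (adjusted p = 0.0848) and with 0 cells counted as ratios (-0.21).

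Of the other receptor and ligand lists, the IL-2, IL-4 and IL-13 group rose in 4 and fell in 2 of 9 (66.7% passed, against 43.1% of all features). It was led by the thymic stromal lymphopoietin receptor Crlf2 at 1.38 ± 0.195 and the IL-7 receptor Il7r at 0.88 ± 0.079 (SD, n = 3). Il15 was at -0.94 ± 0.172, a call lost with 0 cells counted as ratios (-0.93). In the growth hormone, erythropoietin and myeloid growth factor group 2 of 5 passed, both as higher. That is 40%, against 43.1% of all features that passed and 20.8% that rose. The genes that passed were the receptor chains Il3ra at 0.94 ± 0.283 and Il5ra at 0.51 ± 0.346. Both calls were lost with 0 cells counted as ratios (0.45 and 0.26). Il3ra also moved to 0.54, still passing, with ratios on at least 2 arrays, and Il5ra to 0.32, still passing, without mouse 1. The growth hormone and prolactin receptors that feed STAT5 were not tested. Among other inhibitors 5 of 11 rose and 1 fell (54.5% passed, against 43.1% of all features). The rises of Usp18 and Ptpn11 and the fall of Dok2 were lost with 0 cells counted as ratios and without mouse 3. The other rises were the phosphatases Ptprc, which is the leukocyte antigen CD45, at 1.33 ± 0.124, Ptpn12 at 0.41 ± 0.0734 and Ptpn2 at 0.38 ± 0.0335. Ptprc moved to 0.64 with ratios on at least 2 arrays and lost its call with 0 cells counted as ratios (0.30).

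**Figure D3:**
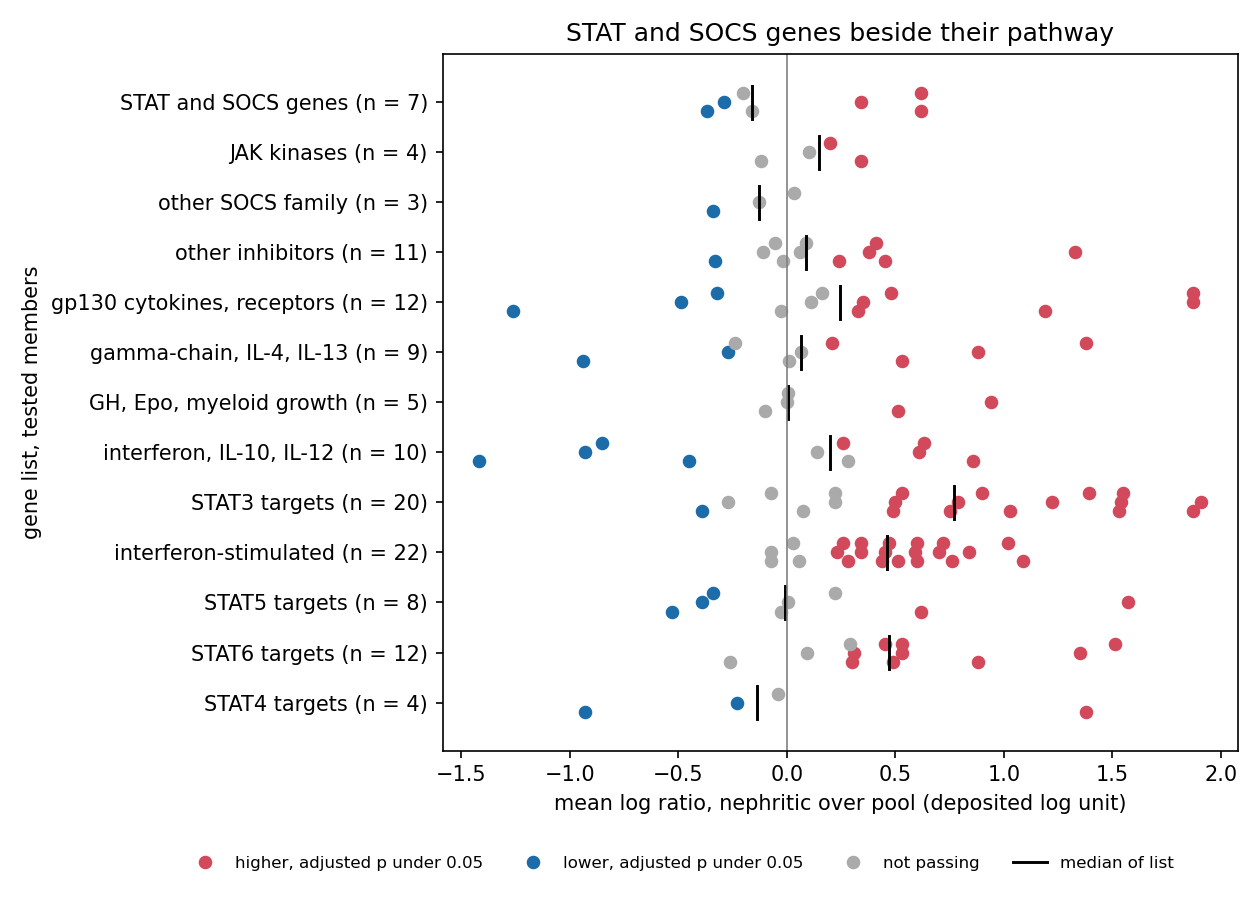
Mean log ratio over 3 mice, in the deposited log unit, of each tested STAT and SOCS gene (top) and of each tested gene of the pathway lists, coloured by whether it passed at an adjusted p of 0.05; vertical bars are list medians. The medians of the STAT3 targets and the interferon-stimulated genes lie at 0.77 and 0.46, that of the STAT5 targets at -0.00983.

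Whole kidney mixes cell types, so more cells of a type and more RNA per cell cannot be told apart, and STAT and SOCS genes are expressed in most of them. Marker counts are read against all features of the same arrays, of which 20.8% rose and 22.3% fell. All 10 tested macrophage and dendritic cell markers rose, with a list median of 0.76 to 1.00 in the 3 mice, Lyz2 at 1.69 ± 0.0986 and C1qa at 1.22 ± 0.115 (SD, n = 3), while Cd14 was exactly 0 on every array. T cell and NK cell markers rose in 4 of 8 with list medians of 0.17 to 0.43, led by Cd8a at 0.99 ± 0.157 (0.53 with 0 cells counted as ratios) and Thy1 at 0.82 ± 0.0636; the defining marker Cd3e was exactly 0 on every array and Cd3d and Cd3g had ratios on some arrays only. Neutrophil markers rose in 2 and fell in 4 of 9 (list medians -0.15 to -0.0389), and B cell markers rose in 1 of 5 (0.10 to 0.26), with Cd79a exactly 0 throughout. The B cell share of 20% was close to the 20.8% of all features that rose. The B cell gene that passed, the antibody heavy chain Ighm at 0.24 ± 0.129, turned to -0.0313 when its first row was taken alone and did not pass when mouse 1 (0.23, adjusted p = 0.0506) or mouse 3 (0.18, adjusted p = 0.318) was left out.

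Endothelial markers rose in 1 of 6 (list medians 0.00176 to 0.16), a share of 16.7% against 20.8% of all features. Fibroblast and pericyte markers rose in 6 of 9 (0.53 to 0.94), a share of 66.7%. Ratios carry no level, so the kidney label could not be checked by expression. All 6 tested proximal tubule markers were lower (list medians -0.80 to -0.67), with Gatm, an enzyme of creatine synthesis, at -1.17 ± 0.117. Markers of podocytes, the loop of Henle, the distal tubule and the collecting duct fell in 4 and rose in 1 of 7 (-0.72 to -0.25). Umod and Synpo were exactly 0 on every array. Collecting duct genes did not move one way: Aqp2 rose by 0.29 ± 0.13 (SD, n = 3), Aqp3 fell by 0.70 ± 0.295 and Avpr2 did not pass. Nphs1 was the only podocyte marker tested, and it fell. For these named genes the alternatives were not examined. The part of these cell types in the STAT and SOCS values was not tested.

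**Figure D4:**
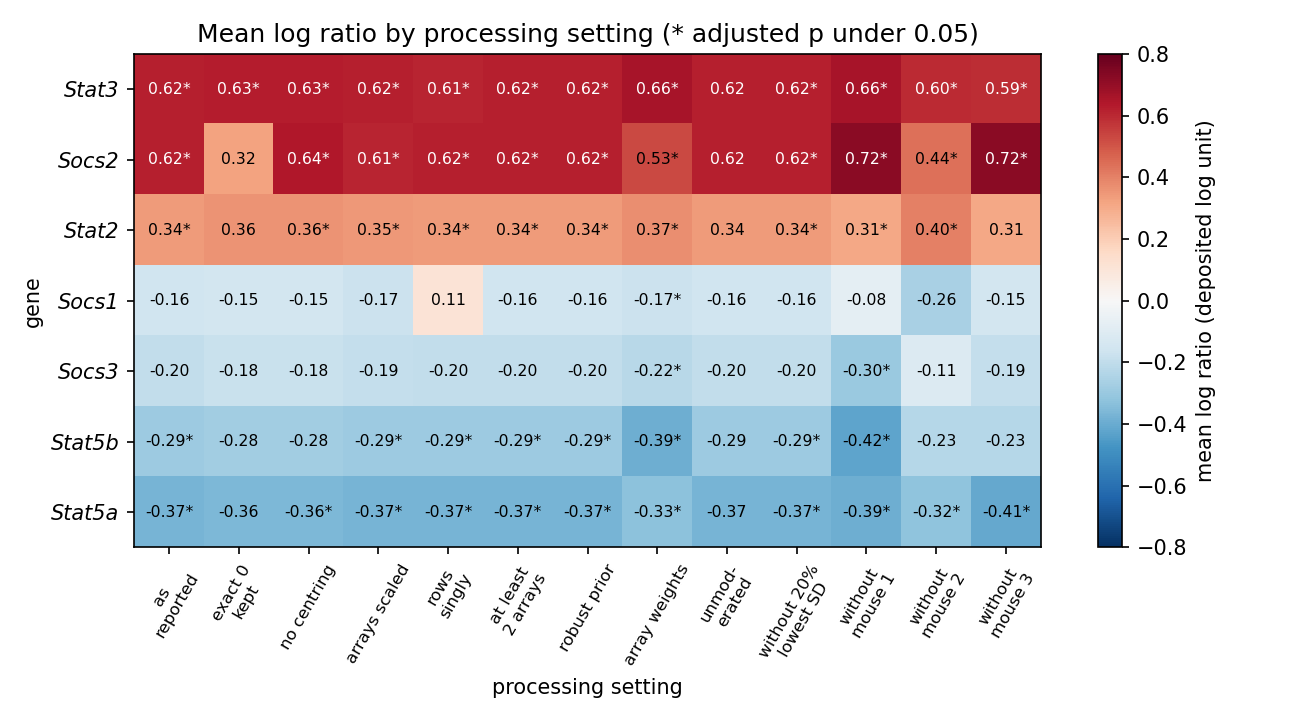
Mean log ratio (number and colour, deposited log unit) of the 7 tested STAT and SOCS genes under the reported processing and the 12 alternatives; an asterisk marks an adjusted p under 0.05. Stat3 keeps its value and passes in 11 of 12 alternatives, Socs1 changes sign when rows are taken singly, and the unmoderated test passes none of the 7.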

How the data were processed

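The values are scores deposited by the authors: log ratios of 2 channels, 1 column per array, with scanner, normalization, log base and direction not given in the sources used here. Rows were named through the platform annotation and updated by gene identifier in RefSeq's GRCm38.p6 table: 13738 of 16281 rows had 1 symbol (13694 matched), 52 had several and 2491 none. Exact 0 was set to missing, arrays were centred on their median, and rows of a gene with a ratio on all arrays were averaged. Features were tested in R 4.3.3 by limma 3.58.1 (an intercept in lmFit, then eBayes with a prior SD of 0.134 on 4.85 degrees of freedom, beside 2 residual), two-sided, with Benjamini-Hochberg adjustment over all 8449 features. Usable ratios numbered 10998 to 11930 per array; precision is limited by the number of arrays, and an exact sign-flip test over 3 mice cannot go below p = 0.25. The labels name a different mouse for each array. The members and all gene lists were chosen with earlier results of these data known, and 1 listed gene is not reported here. Named genes were the members, Irf9, the JAK and SOCS families, up to 6 passing genes with the smallest p of each pathway list, up to 2 of each cell type list, and the 3 nearest genes of the highest and lowest member. Il6st, Il12a, Aqp2, Aqp3, Avpr2, Nphs1 and untested markers were named after their values were seen. Scripts were tested on simulated data. Alternatives are given in the closing section.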

Additional observations from a re-analysis of the deposited data

How the results depend on the processing

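The alternatives were 0 cells counted as ratios, no centring, scaled arrays, single rows, array weights, a robust prior, ratios on at least 2 arrays, an unmoderated test, dropping the 20% least variable features by SD, and leaving out each mouse. Dropping features by SD filters on the same SD that the prior is fitted to, so very small adjusted p values in that setting are not read as added evidence. All features that passed numbered 3638 as reported, 986 with 0 cells counted, where 13241 features were tested, and 2202 to 4193 with 1 mouse left out; without mouse 3 the count was 2202. The STAT and SOCS genes that passed numbered 5, then 1 with 0 cells counted and 3 to 6 with 1 mouse left out, 3 without mouse 3 and 6 without mouse 1. The other pathway genes that passed numbered 75, then 24 with 0 cells counted and 55 to 76 with 1 mouse left out. The unmoderated test with Benjamini-Hochberg adjustment passed 0 features, 0 STAT and SOCS genes and 0 other pathway genes; at an unadjusted p under 0.05 it passed 3060, 3 and 65, against 4361, 5 and 81 for limma. Signs turned for Socs1 (0.11), Ighm (-0.0313) and Il6ra (-0.0246) with single rows, where the first row stood for the gene, and for Socs5 without mouse 3 (-0.00217 to 0.0845 over the mice left out). Counting 0 cells changed both the averages of genes with such rows and the prior and adjustment, and the part of each was not tested. Signal over background was not analysed here. No paired analysis was possible because the arrays form 1 group against 1 common pool.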
